A study of Mus musculus with 24 samples.

Results

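The endocannabinoid genes described here are *Cnr1*, *Dagla*, *Daglb*, *Napepld*, *Mgll*, *Abhd6*, *Abhd12*, *Faah* and *Naaa*, chosen by name, with no measured value in the rule. All 9 were present among the 13998 genes of the deposited expression table, and all 9 were tested. Expression was measured in the hypothalamus by SAGE-Seq, which counts 1 short tag near the 3′ end of each polyadenylated transcript, in 24 F2 mice with 1 library per mouse. Since a transcript gives 1 tag whatever its length, normalized counts (tag hits divided by the size factor of the library) are set side by side between genes without scaling for length.

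The mice were adult males from a cross of the B6.CAST-17.1 subcongenic line with C57BL/6J. The 12 *cast/cast* mice carried CAST alleles on both copies of the Chr 17 subcongenic segment without recombination. The 12 *b6/b6* mice carried B6 alleles there, and all 24 were *b6/b6* over the rest of the genome. Every mouse had chosen for 10 d between a carbohydrate/protein (C/P) and a fat/protein diet, had been returned to chow, and had received the choice diets again for about 48 h before a short fast and tissue collection. The groups were taken from opposite tails of C/P intake, so they differ in genotype and in selected intake, and the 10 d C/P intake was 77.8 to 106.6 kcal in *cast/cast* and 27.4 to 41.0 kcal in *b6/b6* mice. Genotype and chosen intake cannot be told apart in this comparison. Mice are numbered below within each genotype in the order of the deposited records.

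Endocannabinoids are lipid messengers that neurons make on demand and that act backwards across the synapse on the CB1 receptor, a G protein-coupled receptor that reduces transmitter release. Of the main ligands, 2-arachidonoylglycerol (2-AG) is made by diacylglycerol lipases, and anandamide is an *N*-acylethanolamine that can be released by the phospholipase D encoded by *Napepld*. Separate hydrolases end the signals, and in the hypothalamus CB1 signalling is known for promoting feeding.

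All 9 genes lie outside Chr 17, so by design both genotypes carry the same B6 alleles at each of them. The tags expected for these genes are shown because they are the only part of each transcript that was counted. Each is the 27 bases beginning at the 3′-most CATG, the site cut by the anchoring enzyme of this kind of library, and was predicted from GRCm38 transcripts and not read from the libraries. The CATG is in capitals.
Cnr1: CATGtctattgtctaaaattacctgga
Dagla: CATGacctttttgtacctaatgtatga
Daglb: CATGgactactgtacccaggggtgatg
Napepld: CATGtaagttccactcgtgaagtacac
Mgll: CATGtgagcatcgggggagtgctctgc
Abhd6: CATGgggggtggggtggggcattgctc
Abhd12: CATGaagacccaccttccttccttctc
Faah: CATGcaaataagatcataaataaaata
Naaa: CATGctggcttgagtgctcttttgttg

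Each of these tags lay in a 3′ UTR, within 1 exon, and none was the predicted tag of another gene. On GRCm38 they were placed at chr4:33948768-33948794 on the plus strand for *Cnr1*, chr19:10245392-10245418 on the minus strand for *Dagla* and chr5:143504293-143504319 on the plus strand for *Daglb*. The *Napepld* tag was at chr5:21663078-21663104 on the minus strand, that of *Mgll* at chr6:88828117-88828143 on the plus strand, and that of *Abhd6* at chr14:8056358-8056384 on the plus strand. On the minus strand were those of *Abhd12* at chr2:150833056-150833082, *Faah* at chr4:115996681-115996707 and *Naaa* at chr5:92257713-92257739. A shorter *Mgll* transcript ends elsewhere and has a tag of its own, and the table gives 1 value for the gene. The tags were unlike in composition. G and C made up 13.0% of the bases after CATG in *Faah* and 73.9% in *Abhd6*. The distance from the tag to the 3′ end ran from 52 bases in *Faah* and 64 in *Cnr1* to 568 in *Abhd12*.

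The libraries held 7754202 to 13082873 tag hits on genes. The lowest member count was 40 tag hits, for *Napepld*, and the highest 1833, for *Mgll*. Counting error alone would give coefficients of variation of 2.8% (*Dagla*) to 11.7% (*Napepld*), against observed coefficients over the 24 mice of 14.2% (*Daglb*) to 148.2% (*Abhd12*), so the spread between mice was larger than counting error for each gene. All 11 hypothalamic markers examined were present, with a summed normalized count of 5154 to 29908 per mouse. The 4 libraries least correlated with the rest were *b6/b6* mice 12 and 6 and *cast/cast* mice 6 and 4, with median correlations over all genes of 0.862, 0.893, 0.884 and 0.912, against 0.924 to 0.956 in the other 20. Values without *b6/b6* mice 6 and 12 are given beside the results below that rest on them, where such a fit was made.

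In order of mean normalized count over the 24 mice the genes were *Naaa* (1219), *Dagla* (1211), *Mgll* (689), *Cnr1* (391), *Abhd6* (386), *Daglb* (256), *Abhd12* (209), *Faah* (196 in *cast/cast* and 204 in *b6/b6*) and *Napepld* (71.6). *Naaa* and *Dagla* stood above 87.9% and 87.8% of the genes in the table, and *Napepld* above 34.9%. The mean log2 difference between neighbours in this order did not exceed its SD between mice, with 1 exception. *Faah* exceeded *Napepld* in 24 of 24 mice, by 1.47 ± 0.67 on the log2 scale (mean ± SD, n = 24). *Dagla* exceeded *Mgll* in 21 of 24 mice (0.89 ± 1.04) and *Daglb* exceeded *Abhd12* in 22 (0.81 ± 1.07), so these orders held in most mice. *Naaa* exceeded *Dagla* in 11 of 24 mice, *Cnr1* exceeded *Abhd6* in 9, and *Abhd12* exceeded *Faah* in 4, so the place of *Abhd12* above *Faah* by mean is not its place in most mice.

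**Figure D1:**
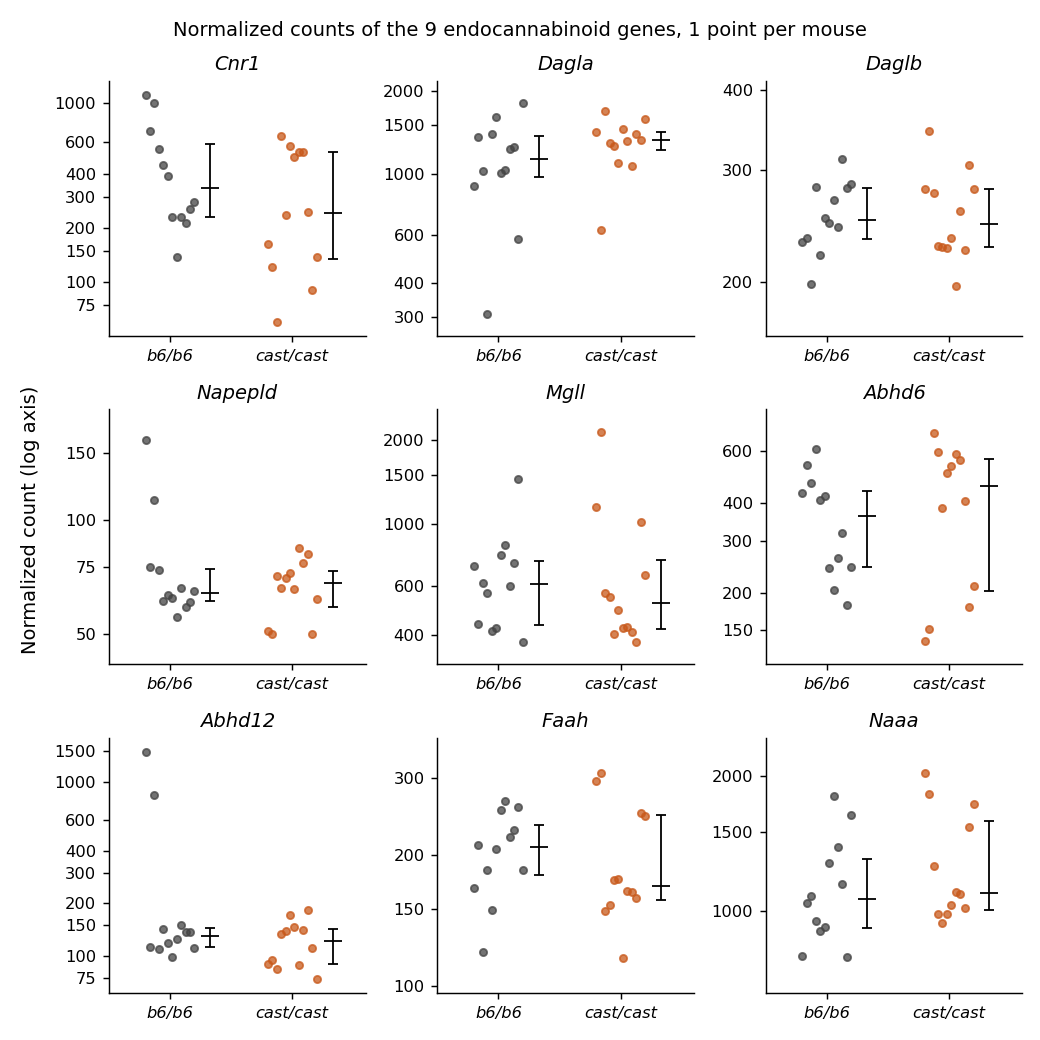
Normalized counts of the 9 genes (log axes), with 1 point per mouse, *b6/b6* in grey and *cast/cast* in orange, points ordered from left to right by study number, and black bars at the median and quartiles. The genotypes overlap for every gene, and 2 *b6/b6* mice stand far above all others for *Abhd12* at 835 and 1487.

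The genotype comparison asks whether the CAST segment on Chr 17, together with the intake for which the mice were chosen, went with a different level of any of these genes. None of the 9 was called by limma at the thresholds of the study, *P* of at most 0.01 with a ratio of means of at least 1.5, and none reached *P* of at most 0.05. Over all 13998 genes 1.49% were called and 8.13% had *P* of at most 0.05. The median log2 difference of the 9 genes was -0.00, and that of all genes was -0.02, *cast/cast* minus *b6/b6*.

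*Cnr1* encodes the CB1 receptor, and its level varied more between mice than that of most genes. In *b6/b6* mice the lowest, median and highest normalized counts were 139, 335 and 1098.5, and in *cast/cast* mice they were 60.3, 242 and 652. The highest 3 mice were *b6/b6*, the lowest 4 were *cast/cast*, and the remaining 17 overlapped. The means were 461 ± 317 in *b6/b6* mice and 320.0 ± 218 in *cast/cast* (SD, n = 12 each), a log2 difference of -0.62 ± 0.40 (SE, limma *P* = 0.129, adjusted *P* = 0.661). Without *b6/b6* mice 6 and 12 the difference was -0.33 ± 0.39. The SD of *Cnr1* within genotypes, 1.06 on the log2 scale, was above that of 96.3% of the 974 genes with a mean within 1.2-fold of its own, whose median SD was 0.46.

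The synthetic enzymes did not pass the test either. *Dagla* encodes the diacylglycerol lipase that makes most 2-AG in the adult brain, and its lowest, median and highest normalized counts were 307, 1132.5 and 1816 in *b6/b6* and 621, 1325 and 1693 in *cast/cast* mice. The groups overlapped, with *b6/b6* mice 7 (307) and 4 (578) below all *cast/cast* mice. The log2 difference was 0.29 ± 0.22 (limma *P* = 0.198, adjusted *P* = 0.701). *Daglb*, the related lipase, ranged from 198 to 311 around a median of 249.6 in *b6/b6* and from 197 to 344 around a median of 246 in *cast/cast* mice. Its log2 difference was 0.01 ± 0.11 (limma adjusted *P* = 0.991). *Daglb* was the steadiest of the 9, since its SD of 0.21 on the log2 scale exceeded that of only 0.8% of the 1037 genes of like level. *Dagla* provided 81.0% ± 8.3 (SD, n = 24) of the summed tags of the 2 lipases, with a lowest share of 52.2% and a highest of 87.0%. The share was 79.2% ± 10.0 in *b6/b6* mice and 82.7% ± 6.1 in *cast/cast*.

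*Napepld*, which encodes a phospholipase D that releases *N*-acylethanolamines, was the least abundant of the 9. It had lowest, median and highest normalized counts of 55.4, 64.3 and 163 in *b6/b6* and 49.9, 68.3 and 84.6 in *cast/cast* mice. The 2 highest values, 163 and 113, belonged to *b6/b6* mice 12 and 6, and all other mice lay between 49.9 and 84.6. The log2 difference was -0.14 ± 0.17 (limma *P* = 0.41, adjusted *P* = 0.817) with all mice and 0.04 ± 0.12 without these 2.

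Among the enzymes that hydrolyse 2-AG, *Mgll* encodes monoacylglycerol lipase, the main one in brain. Its lowest, median and highest normalized counts were 379, 608 and 1442 in *b6/b6* and 377, 520.5 and 2139 in *cast/cast* mice, with the 2139 in *cast/cast* mouse 6 standing above every other mouse. The means did not separate, at 661 ± 289 and 718 ± 512 (SD, n = 12 each, limma adjusted *P* = 0.997). *Abhd6*, a membrane hydrolase found at sites of 2-AG production, had values of 182.5, 364 and 609 in *b6/b6* and 138, 456 and 688 in *cast/cast* mice. The *cast/cast* range covered the *b6/b6* range at both ends, and the log2 difference was 0.09 ± 0.28 (limma adjusted *P* = 0.936).

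*Abhd12* encodes a hydrolase of 2-AG and of lysophosphatidylserine. It had lowest, median and highest normalized counts of 98.0, 130 and 1487 in *b6/b6* and 73.4, 122 and 183 in *cast/cast* mice. Only *b6/b6* mice 6 (835) and 12 (1487) lay above the *cast/cast* range, and the other 22 mice lay between 73.4 and 183. The ratio of means was 0.409, *cast/cast* over *b6/b6*, while the ratio of medians was 0.938. The log2 difference was -0.61 ± 0.36 in limma (*P* = 0.101, adjusted *P* = 0.639). The quasi-likelihood test of edgeR on tag hits called this gene and no other of the 9 (log2 difference -1.28, *P* = 0.00574, adjusted *P* = 0.258), with 2.79% of all genes called by it, and DESeq2 gave *P* = 0.0536. Without *b6/b6* mice 6 and 12 the ratio of means was 0.98 and the log2 difference in limma -0.08 ± 0.16. The *Abhd12* difference in means thus came from 2 of 24 libraries. In these 2 mice the summed normalized count of the endothelial markers (3 of 3 measured) was 409 to 478.5, against 67.5 to 205 in the other 22, and that of the GABA neuron markers (3 of 3) was 3693 to 4449, against 1161 to 4362. Their part in the *Abhd12* values was not tested.

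*Mgll* gave 52.9% ± 18.1 of the summed tags of the 3 hydrolases, *Abhd6* 32.9% ± 15.4 and *Abhd12* 14.2% ± 11.8 (SD, n = 24). These shares differed widely between mice. That of *Mgll* ran from 27.0% to 89.7% and that of *Abhd6* from 6.4% to 53.2%. By genotype, *Mgll* gave 52.2% ± 16.8 in *b6/b6* mice and 53.7% ± 20.1 in *cast/cast*. In *b6/b6* mouse 12, *Abhd12* alone reached 56.6%, against at most 19.0% in any *cast/cast* mouse.

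*Faah* encodes the main hydrolase of anandamide, and *Naaa* a lysosomal amidase that prefers palmitoylethanolamide. For *Faah* the lowest, median and highest normalized counts were 120, 208 and 266 in *b6/b6* and 116, 170 and 309 in *cast/cast* mice. Both ends of the whole range belonged to *cast/cast* mice, and the log2 difference was -0.08 ± 0.17 (limma adjusted *P* = 0.896). For *Naaa* they were 786, 1059.6 and 1803 in *b6/b6* and 940.5, 1096 and 2027 in *cast/cast* mice. The 4 lowest mice were *b6/b6* and the 2 highest *cast/cast*, with a log2 difference of 0.17 ± 0.16 (limma *P* = 0.294, adjusted *P* = 0.758). *Faah* tags were fewer than *Naaa* tags in all mice, and made up 15.6% ± 4.0 of the pair in *b6/b6* mice and 13.2% ± 1.6 in *cast/cast* (SD, n = 12 each).

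**Figure D2:**
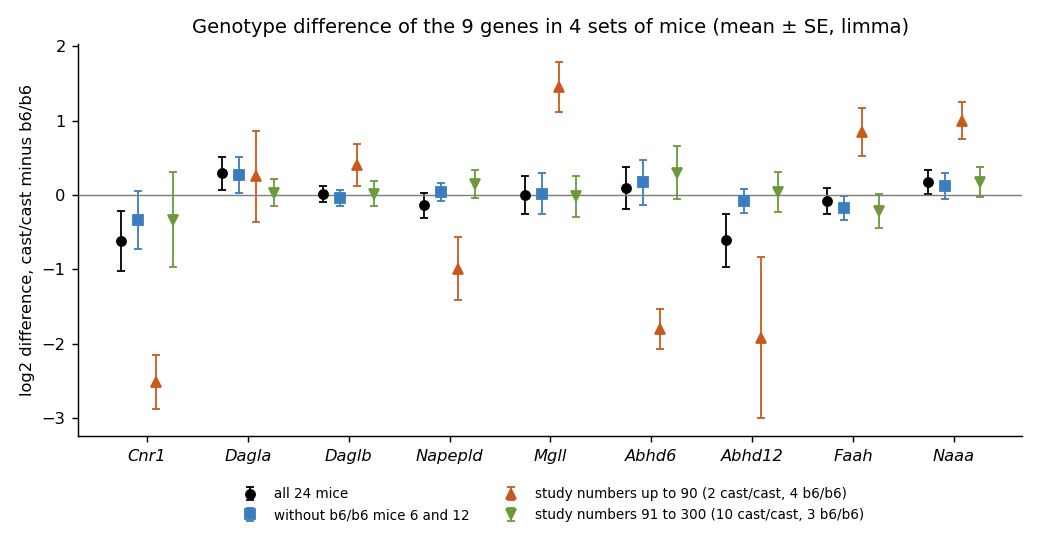
The log2 difference of each gene, *cast/cast* minus *b6/b6*, with its SE from limma, for all 24 mice, without *b6/b6* mice 6 and 12, and in the 2 ranges of study numbers that hold both genotypes. Values for all mice lie within -0.62 and 0.29, whereas those for study numbers up to 90, from 6 mice, reach -2.51 for *Cnr1* and 1.45 for *Mgll*.

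Each mouse carries a study number in its label, and what the number marks is not stated there. Study numbers up to 90 held 2 *cast/cast* and 4 *b6/b6* mice, those from 91 to 300 held 10 and 3, and higher numbers held *b6/b6* mice only. Within the low numbers limma called 4 of the 9 genes, where 19.0% of all genes were called. *Cnr1* was 121 and 163 in the 2 *cast/cast* mice and 554 to 1098.5 in the 4 *b6/b6* mice, a log2 difference of -2.51 ± 0.36 (adjusted *P* = 0.00757). *Abhd6* was 138 and 152 against 432 to 609 (-1.80 ± 0.27, limma adjusted *P* = 0.00935). *Mgll* and *Naaa* went the other way, at 1152 and 2139 against 439.9 to 709 for *Mgll* (1.45 ± 0.34, limma adjusted *P* = 0.0279) and 1827 and 2027 against 794 to 1081 for *Naaa* (1.0 ± 0.25, limma adjusted *P* = 0.0329). The genotypes did not overlap for these 4 genes in those 6 mice, nor for *Napepld*, *Abhd12* and *Faah*, which were not called. The share of all genes without such overlap was not computed. All 4 mice named above as least like the other libraries are among the 6. Without *b6/b6* mice 6 and 12 the same 4 genes were called, where 21.1% of all genes were, with log2 differences of -2.14 ± 0.28 for *Cnr1*, -1.98 ± 0.25 for *Abhd6*, 1.65 ± 0.35 for *Mgll* and 0.95 ± 0.22 for *Naaa*. Both *cast/cast* mice of this range are among the 4, so no fit was possible without them. On the first principal component of the libraries, described below, these *cast/cast* mice stood at 0.347 and 0.395 and *b6/b6* mice 6 and 12 at -0.353 and -0.393. The summed striatal markers were 2317 to 2777 in the 4 *cast/cast* mice high on that component, which include these 2, and 822 to 878 in *b6/b6* mice 6 and 12. The part of the component and of tissue composition in these differences was not tested. With wider limits, 7 *cast/cast* mice up to study number 121 and 5 *b6/b6* mice up to 109, the genotypes overlapped for all 4 called genes. *Cnr1* was 60.3 to 652 and 449.6 to 1098.5, and *Abhd6* 138 to 688 and 410 to 609. *Mgll* was 403 to 2139 and 415 to 709, and *Naaa* 940.5 to 2027 and 794 to 1081. The separation up to 90 was thus not seen with these limits.

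In the 13 mice with study numbers from 91 to 300 none of the 9 was called, and none had limma *P* of at most 0.05. *Cnr1* was 60.3 to 652 in *cast/cast* and 232 to 449.6 in *b6/b6* mice (-0.33 ± 0.64). The difference between the genotypes itself differed between the 2 ranges of study numbers for *Abhd6* (by -2.10 ± 0.55, limma interaction adjusted *P* = 0.032) and *Mgll* (by 1.47 ± 0.46, adjusted *P* = 0.0486), as it did for 10.0% of all genes. For *Cnr1* the interaction was -2.18 ± 0.95 (adjusted *P* = 0.123). Without *b6/b6* mice 6 and 12 the interaction was -2.28 ± 0.62 for *Abhd6* (limma adjusted *P* = 0.0788) and 1.67 ± 0.51 for *Mgll* (adjusted *P* = 0.0839), so neither passed the threshold. No gene in the table passed it in that fit, in which 26.6% had unadjusted *P* of at most 0.05. With study number as a covariate over all 24 mice, *Cnr1* had a log2 difference of -0.87 ± 0.37 (limma *P* = 0.0264, adjusted *P* = 0.295) and *Abhd12* one of -0.80 ± 0.34 (*P* = 0.0254, adjusted *P* = 0.292). These 2 of 9 stood beside 14.8% of all genes with *P* of at most 0.05 in that fit. It was not run without *b6/b6* mice 6 and 12, and without them and without the covariate the *Abhd12* difference was -0.08 ± 0.16.

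**Figure D3:**
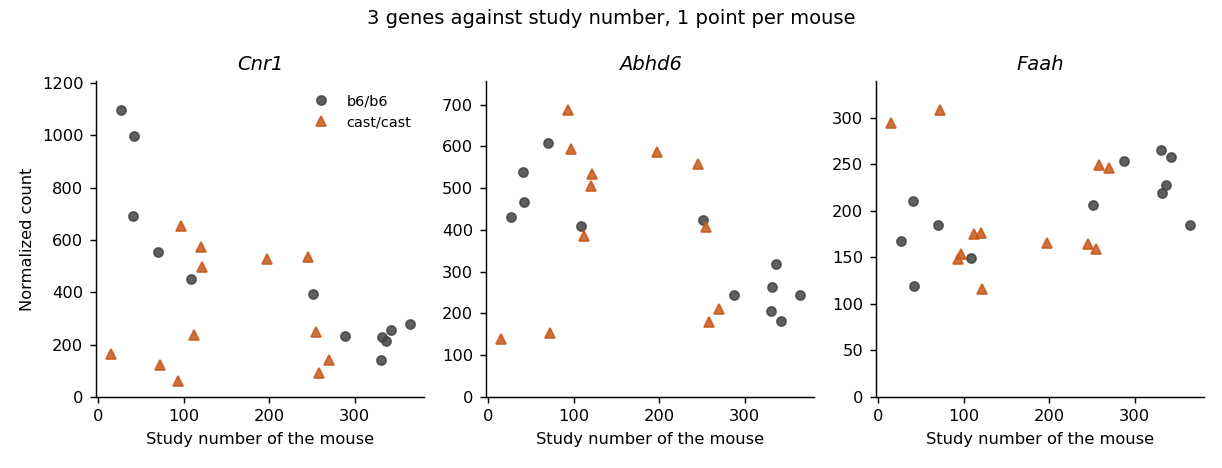
Normalized counts of *Cnr1*, *Abhd6* and *Faah* against the study number of the mouse, with 1 point per mouse, circles for *b6/b6* and triangles for *cast/cast*. In *b6/b6* mice *Cnr1* lies at 449.6 to 1098.5 up to study number 109 and at 139 to 392 from 251 onwards.

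Among *b6/b6* mice alone, *Cnr1* and *Abhd6* were lower at higher study numbers. The 5 mice with study numbers 27 to 109 had *Cnr1* at 449.6 to 1098.5 and the 7 with study numbers 251 to 364 had it at 139 to 392, without overlap. *Abhd6* was 409.8 to 609 in the former and 182.5 to 423 in the latter. How many of all genes separate these 2 sets of mice without overlap was not computed. The limma slopes over the 12 mice were -0.00617 ± 0.000825 log2 units per study number for *Cnr1* (adjusted *P* = 0.00324) and -0.00353 ± 0.000707 for *Abhd6* (adjusted *P* = 0.00629). They were the 2 slopes of the 9 genes with adjusted *P* of at most 0.05, a threshold passed by 22.7% of all genes, and 5 of 9 had unadjusted *P* of at most 0.05, as did 38.2% of all genes. Without mice 6 and 12 the slopes were -0.00503 ± 0.000899 for *Cnr1* (limma adjusted *P* = 0.0198) and -0.00418 ± 0.000819 for *Abhd6* (adjusted *P* = 0.0225), with 6.6% of all genes at that threshold. Study number itself had *r* = 0.88 with the first principal component of the libraries in *b6/b6* mice, and its part apart from that component was not tested. As the study numbers fall into 2 separate runs, the slopes over the 12 mice rest largely on the contrast between the runs. No correlation over all 12 is given for that reason. Within the 7 later mice *r* was -0.47 for *Cnr1* (rho 0.00, exact permutation *P* = 0.312 and 1.0) and -0.64 for *Abhd6* (rho -0.32, exact *P* = 0.121 and 0.498). In *cast/cast* mice none of the 9 slopes had *P* of at most 0.05, where 1.37% of all genes did, and the lowest interaction adjusted *P* between genotypes was 0.343.

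Relations with intake were examined within each genotype, so that 54 slopes were fitted for the 9 genes on C/P kcal, total kcal and study number, and no slope on intake had an adjusted *P* of at most 0.05. On C/P kcal, 3 of 9 genes had limma *P* of at most 0.05 in *b6/b6* mice (23.8% of all genes) and 0 of 9 in *cast/cast* mice (2.41%). *Dagla* in *b6/b6* mice had *r* = 0.57 (permutation *P* = 0.0585), rho = 0.85 (permutation *P* = 0.00081) and *r* = 0.76 without the 2 mice farthest from the median intake, with a limma adjusted *P* of 0.159. *Abhd12* and *Napepld* had *r* = -0.66 each (permutation *P* = 0.0315 and 0.0282) with rho of -0.18 and -0.21 (permutation *P* = 0.566 and 0.512), and *r* became -0.25 and -0.11 without those 2 mice. On total kcal, 3 of 9 had limma *P* of at most 0.05 in *cast/cast* mice (26.3% of all genes) and 2 of 9 in *b6/b6* mice (2.81%). In *b6/b6* mice *Cnr1* had *r* = -0.56 (rho -0.62, permutation *P* = 0.0631 and 0.038) and *Dagla* *r* = 0.56 (rho 0.56, permutation *P* = 0.0509 and 0.0618). Without the 2 farthest mice *r* was -0.49 and 0.30, and the limma adjusted *P* was 0.883 for each. In *cast/cast* mice *Abhd6* had *r* = 0.65 (rho 0.57, permutation *P* = 0.022 and 0.0594) and *Faah* *r* = -0.66 (rho -0.73, permutation *P* = 0.0192 and 0.00792). Their limma adjusted *P* was 0.108 and 0.134, and without the 2 farthest mice *r* was 0.29 and -0.41.

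The 9 genes did not vary independently between mice. On the first principal component of the genes off Chr 17, 4 *cast/cast* mice (4, 5, 6 and 8) lay above 0.2 and were set apart for that reason, so their place on it is not a further observation. In these 4 *Abhd6* lay at 138 to 211.5 and in the other 8 at 385.5 to 688. The same 4 mice had *Faah* at 246 to 309 against 116 to 176, and *Naaa* at 1542 to 2027 against 940.5 to 1257. *Mgll*, at 655.5 to 2139 against 377 to 566, and *Daglb*, at 279 to 344 against 197 to 275.5, were also higher in each of the 4 than in any of the 8. *Napepld*, like *Abhd6*, was lower in each of them, at 49.9 to 61.9 against 65.9 to 84.6. *Cnr1*, *Dagla* and *Abhd12* overlapped between these mice. *b6/b6* mouse 1 also lay above 0.2 on the component, at 0.27, and was not counted with the 4 *cast/cast* mice. Its *Abhd6* (205), *Faah* (266), *Naaa* (1803), *Mgll* (838) and *Napepld* (55.4) fell within their ranges, and its *Daglb* (269) did not. As the 4 *cast/cast* mice were picked by the component, genes that follow it are set apart in them partly by that choice. No test was therefore applied to them. The share of all genes that separate them from the other 8 was not computed. Of the 11450 genes with a mean of at least 20, 27.8% had *r* of at least 0.7 in size with that component.

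Over the 36 pairs of genes, with genotype means removed, 21 had a correlation of at least 0.5 in size across the 24 mice, compared with 26.8% of all pairs of genes with a mean of at least 50. Because the 4 *cast/cast* mice stand apart, correlations are given within genotypes. In the 12 *b6/b6* mice 15 pairs reached 0.5, where the share of all pairs of genes was not computed. After adjustment over the 36 pairs, 3 had a permutation *P* of at most 0.05. *Cnr1* and *Napepld* had *r* = 0.84 (rho 0.83, permutation *P* = 3e-05 and 0.00151, adjusted *P* = 0.00108 for *r*). *Cnr1* and *Abhd6* had *r* = 0.80 (rho 0.78, permutation *P* = 0.00223 and 0.00424, adjusted *P* = 0.0313), and *Cnr1* and *Faah* *r* = -0.78 (rho -0.80, permutation *P* = 0.00261 and 0.00298, adjusted *P* = 0.0313). The CB1 receptor transcript was thus high in the *b6/b6* mice where *Napepld* and *Abhd6* were high and *Faah* was low. These genes also followed the first principal component of the libraries, described below. Without *b6/b6* mice 6 and 12 these 3 pairs had *r* = 0.83, 0.87 and -0.65. Over all 12 *cast/cast* mice they had *r* = 0.54, 0.54 and -0.53, of the same signs, and in the 8 *cast/cast* mice outside the 4 *r* = 0.01, -0.12 and 0.03. Whether these values differ between the genotypes was not tested. *Napepld* and *Abhd12* had *r* = 0.93 in *b6/b6* mice but rho = 0.22 (permutation *P* = 0.00645 and 0.496), and *r* = -0.37 in the *b6/b6* mice other than 6 and 12.

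**Figure D4:**
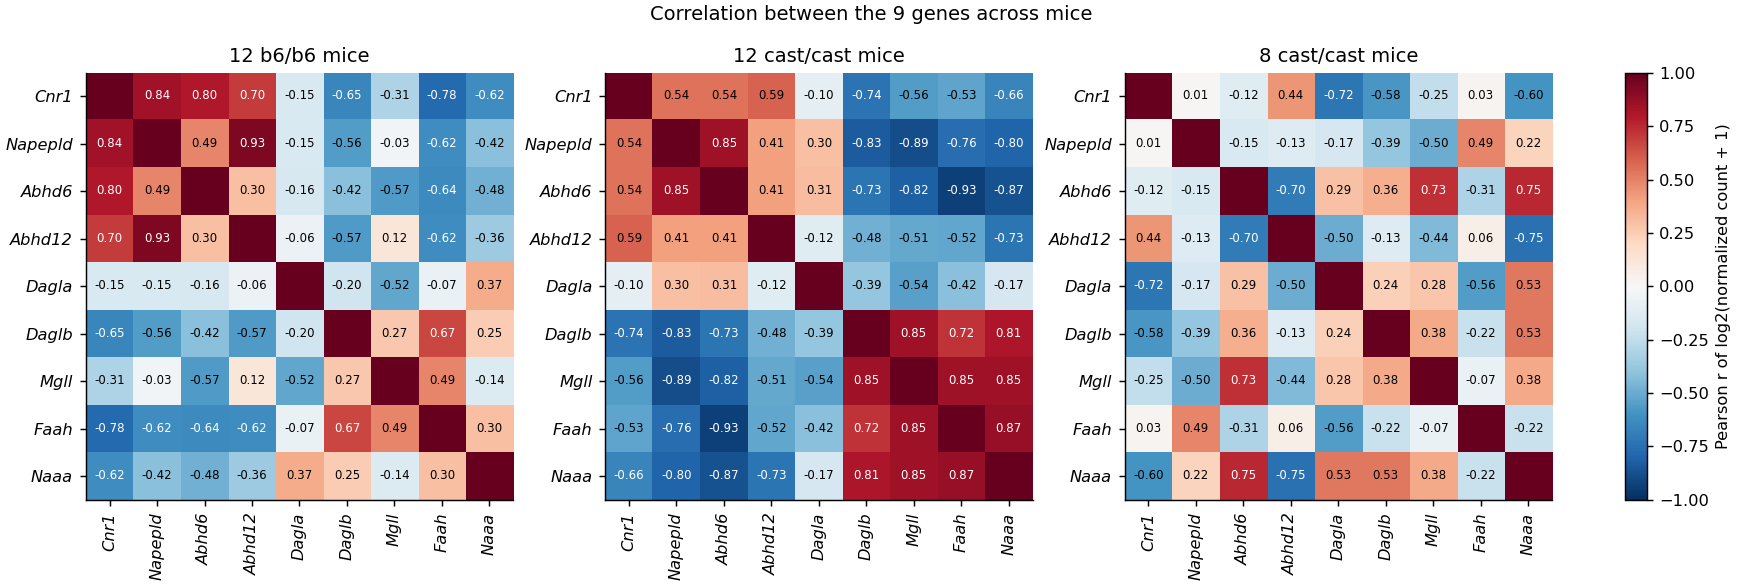
Pearson correlation of log2(normalized count + 1) between the 9 genes in the 12 *b6/b6* mice (left), in the 12 *cast/cast* mice (middle) and in the 8 *cast/cast* mice outside the 4 that stand apart (right), with red for positive and blue for negative values. In *b6/b6* mice *Cnr1*, *Napepld* and *Abhd6* are positively correlated with each other and negatively with *Faah*. *Abhd12* has the same signs in the 12 *b6/b6* mice. Without mice 6 and 12, not drawn, its *r* is -0.24 with *Cnr1*, -0.37 with *Napepld*, -0.21 with *Abhd6* and -0.1 with *Faah*. *Cnr1* and *Faah* have *r* = -0.53 in all 12 *cast/cast* mice and 0.03 in the 8.

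The same division of the genes followed the main axis of variation of the whole libraries. The first principal component of the 13364 genes off Chr 17 held 33.6% of their variance and the second 18.4%. *Faah* (*r* = 0.84), *Naaa* (0.81), *Daglb* (0.77) and *Mgll* (0.66) were positively correlated with the first, and *Abhd6* (-0.84), *Cnr1* (-0.82), *Napepld* (-0.82) and *Abhd12* (-0.66) negatively. These are descriptions over 24 mice that share the libraries from which the component was computed. The median size of *r* over the 11450 genes with a mean of at least 20 was 0.51. *Dagla* was apart from the other 8, at -0.01. The 2 components took up 89.9% of the variance within genotypes of *Abhd6* and 6.4% of that of *Dagla*. After both were removed, 3 of the 36 pairs had a correlation of at least 0.5 in size. With genotype means removed, *Cnr1* had *r* = 0.67 with *Napepld*, 0.63 with *Abhd6* and -0.63 with *Faah* over the 24 mice. With both components also removed these were -0.35, -0.04 and 0.23.

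Properties of the tags and of the tissue moved along the same component. Over 10076 genes with a predicted tag, the median *r* with it was 0.32 where the tag lay 51 to 100 bases from the 3′ end and -0.66 where it lay 801 bases or more from it. Of the members, *Abhd12*, with the most distant tag, was negative, while *Cnr1*, *Faah* and *Naaa*, all with tags at 51 to 100 bases, were of either sign. The summed normalized count of the striatal markers (3 of 4 measured) was 2317 to 2777 in the 4 *cast/cast* mice above and 1127 to 1816 in the other 8, and had *r* = 0.93 with the component. That of the microglial markers (4 of 4) was 1749 to 3617 against 1233 to 1694 (*r* = 0.86). That of the hypothalamic markers (11 of 11) was 5154 to 16025 against 13106.5 to 29908 (*r* = -0.70). In bulk tissue, fewer cells of a type and less RNA per cell cannot be told apart, and the part of tag position and of tissue composition in the values of the 9 genes was not tested.

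**Figure D5:**
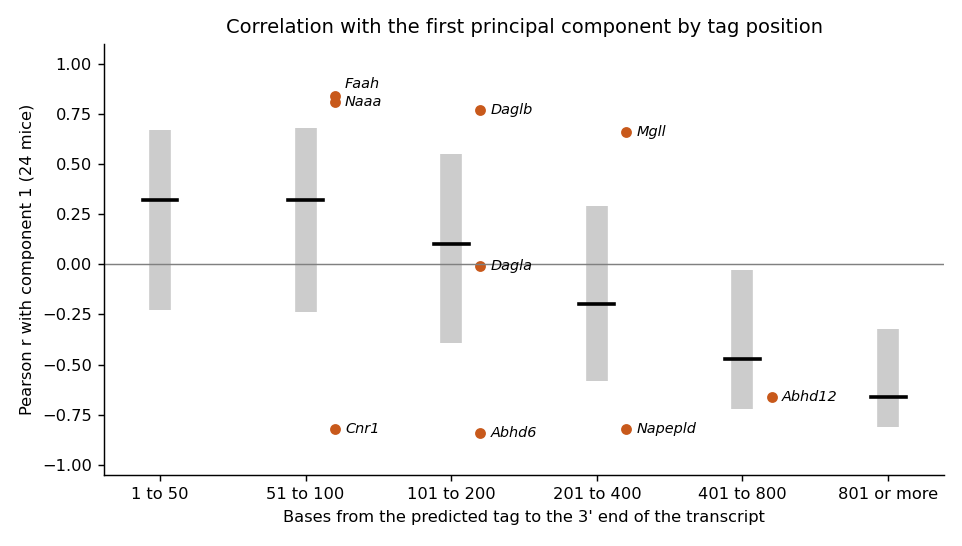
Pearson correlation with the first principal component (vertical axis) by distance of the predicted tag from the 3′ end (horizontal axis), with grey bars for the quartiles and black lines for the medians of all genes in each range, and orange points for the 9 genes. The median falls from 0.32 to -0.66, and 7 of the 9 genes lie outside the quartiles of their range, *Dagla* and *Abhd12* being inside.

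For each gene, the 2 others with the most similar deviations from the genotype mean over the 24 mice were found among 9987 genes. They were *Impad1* (*r* = 0.94) and *Lats1* (0.93) for *Cnr1*, and *Wdtc1* (0.92) and *Fam179a* (0.89) for *Dagla*. *Mrps25* (0.86) and *Slc6a7* (0.85) were closest to *Daglb*, and *Ywhaq* (0.94) and *Dennd4a* (0.92) to *Napepld*. The hydrolases had *Ei24* and *Tcf25* (both 0.94) for *Mgll*, *Gnl2* (0.97) and *Smc3* (0.96) for *Abhd6*, and *Hadhb* (0.95) and *Cuedc2* (0.94) for *Abhd12*. *Faah* was closest to *Adap1* and *C030006K11Rik* (both 0.93), and *Naaa* to *Cbr4* and *Arfgap2* (both 0.91). Genes with *r* of at least 0.7 numbered 32 for *Dagla* and 480 to 1230 for each other member. The 2 partners of *Dagla* kept *r* = 0.94 and 0.92 once the 2 components were removed, whereas those of *Abhd6* went to 0.66 and 0.58.

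Of 49 other genes of the pathway listed, 36 were measured and none was called between genotypes by limma. The median log2 difference was 0.04 over 10 further genes of endocannabinoid synthesis, -0.12 over 8 of breakdown and binding, and -0.10 over 17 partners and effectors of CB1. The most abundant by role were *Gdpd1* and *Gde1*, phosphodiesterases of lipid precursors (log2 difference 0.23 ± 0.20 and -0.05 ± 0.14), and the fatty acid binding proteins *Fabp7* and *Fabp3* (0.55 ± 0.30 and 0.09 ± 0.16). Among the CB1 partners they were *Gprasp1*, a sorting protein of G protein-coupled receptors (0.05 ± 0.13), and the inhibitory G protein subunit *Gnai2* (-0.01 ± 0.12). *Ppara*, the nuclear receptor of acylethanolamides and the only further receptor measured, had a log2 difference of -0.08 ± 0.24. The genes with limma *P* of at most 0.05 were named after their values were seen. *Hrasls*, a phospholipid acyltransferase, was at 188 in *b6/b6* mice and 137 in *cast/cast* (*P* = 0.0171), *Cnrip1*, which encodes a CB1-binding protein, at 137 and 87.4 (*P* = 0.036), and *Gdpd3* at 5.24 and 8.27 (*P* = 0.0439). Their limma adjusted *P* was 0.543, 0.604 and 0.607, and 3 of 36 compares with the 8.13% of all genes at that threshold.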

How the data were processed

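Hypothalamus SAGE libraries of 24 mice (12 *cast/cast*, 12 *b6/b6*, grouped by the genotype in the labels) were analysed. As deposited by the authors, the signal values are tag hits per gene, obtained with the SOLiD SAGE Analysis Software (in a modified version) against RefSeq transcripts and the GRCm38 genome, and scaled by a size factor of DESeq. Values of a library were all (100%) multiples of 1 step within a tolerance of 0.05 tag hits, and dividing by it gave totals of 7754202 to 13082873. The authors' own comparison columns (means, fold changes and P) were not used. Genes with several rows entered once.

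All 13998 genes (minimum mean normalized count 5) were fitted with limma 3.58.1 (lmFit, eBayes with trend) on log2(normalized count + 1), and *P* was adjusted by Benjamini-Hochberg over all of them. Differences are on that scale, which understates those of low genes. Permutation tests were two-sided, with 100000 resamples (exact for 7 mice). Alternatives used edgeR 4.0.16 (quasi-likelihood, TMM) and DESeq2 1.42.0 on tag hits. Scripts were tested on simulated data. The labels tie no mouse to a litter, cage or cohort, and the study describes the genotypes as littermates, so *P* measures the spread between these mice.

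Tags were predicted from GENCODE transcripts on GRCm38, trimmed at the RefSeq 3′ ends in the deposited table. The principal components were computed from the genes off Chr 17, and the same mice enter the correlations with them. Tags carry no molecular identifiers, so counting errors cover counting only.

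The members, lists and tests were chosen with earlier results of these data known. Named besides the members were the 2 most abundant pathway genes per role, any called pathway gene, and the 2 genes most like each member with a mean of at least 50. Markers are given as summed levels. Python 3.11.15 (numpy 2.4.6, pandas 2.3.3, scipy 1.17.1, matplotlib 3.10.9) and R 4.3.3 were used.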

Additional observations from a re-analysis of the deposited data

Results flagged for a closer look

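The genotype difference of 2 genes depended on the range of study numbers, by a limma interaction test fitted on all genes in the 19 mice with study numbers up to 300 and added after the data were seen. For *Mgll* the log2 difference, *cast/cast* minus *b6/b6*, was 1.45 ± 0.34 (SE) at study numbers up to 90 and -0.02 ± 0.28 at 91 to 300, a change of 1.47 ± 0.46 (adjusted *P* = 0.0486). For *Abhd6* it was -1.80 ± 0.27 and 0.30 ± 0.36, a change of -2.10 ± 0.55 (adjusted *P* = 0.032). The lower range holds 2 *cast/cast* and 4 *b6/b6* mice, among them the 4 libraries least like the others, and 10.0% of all genes passed the same test. Without *b6/b6* mice 6 and 12 the changes were 1.67 ± 0.51 (adjusted *P* = 0.0839) and -2.28 ± 0.62 (adjusted *P* = 0.0788), so neither passed. Between *cast/cast* mice up to study number 121 and *b6/b6* mice up to 109 the values of both genes overlapped. The cause was not tested.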

How the results depend on the processing

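No member was called by limma in any of the 24 fits that each left out 1 mouse, nor with a pseudocount of 0.5 or 5, other minimum means, rescaled libraries, DESeq2, study number or 2 principal components as covariates, or adjusted *P* of at most 0.05. The exceptions were edgeR with 1 (*Abhd12*, -1.28) and study numbers up to 90 with 4, where *Mgll* (1.45) and *Abhd6* (-1.80) also had the opposite sign to the values over all mice, *Cnr1* was -2.51 and *Naaa* 1.0. Members at *P* of at most 0.05 numbered 0 over all mice (8.13% of all genes), 1 in edgeR (11.6%), 2 with study number as a covariate (14.8%), 6 at study numbers up to 90 (36.1%), and 1 without *b6/b6* mice 6 and 12 and *cast/cast* mice 4 and 6 (8.94%). That last setting and the one without *b6/b6* mice 6 and 12 alone were chosen after seeing the data, and no member was called in them. Study numbers up to 90 without *b6/b6* mice 6 and 12, also chosen later, gave 4 members called, 4 at *P* of at most 0.05 (38.7%) and 9 pathway genes, with *Cnr1* at -2.14, *Naaa* at 0.95, and *Mgll* (1.65) and *Abhd6* (-1.98) again of opposite sign. Of 36 pathway genes, 0 were called over all mice, 1 in edgeR (2.79% of all genes) and 9 at study numbers up to 90 (19.0%). The count ranged from 0 to 1 when 1 mouse was left out, the 1 arising without *b6/b6* mouse 1. The member slopes with adjusted *P* of at most 0.05 numbered 2 over all mice and 2 or 3 in the alternatives. Pairs with a correlation of at least 0.5 in size numbered 21 over all mice and 13 with libraries rescaled to the same total. They numbered 26 within *cast/cast*, 15 within *b6/b6* and 3 with 2 principal components removed. Within 8 *cast/cast* mice, chosen after seeing the data, they numbered 12. The share of all pairs of genes, 26.8%, was computed only over all mice. With *b6/b6* mice 6 and 12 left out, *r* of *Napepld* and *Abhd12* in *b6/b6* mice went from 0.93 to -0.37, and the change of genotype difference between study ranges no longer passed for *Abhd6* or *Mgll*, while the *b6/b6* slopes of *Cnr1* and *Abhd6* still did. The percentile of each member among all genes moved by less than 1 SD between mice with medians or with tag hits as a share of the library total. The shares of enzyme tags moved by less than 1 SD with medians, that of *Mgll* from 52.9% to 43.7%. Such a share is taken within a library, so tag hits as a share of its total could not change it. No paired analysis was possible because the labels give the mice no replicate numbers shared between genotypes. With 12 mice per genotype, SEs of 0.11 to 0.40 on the log2 scale limit the differences that could be detected.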
